A study of Mus musculus with 2 samples.

Results

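The 56 genes described here encode the machinery of cell division: the kinases and cyclins that drive entry into mitosis, the spindle and its motors, the kinetochore, the condensed chromosome and the cleavage furrow. They were chosen by name as a list of mitosis, spindle and kinetochore genes. The rule uses no measured value, but the list was drawn up with earlier results of these data known. All 56 were found on the array, among 20649 named genes, and all 56 were well above background on both arrays. They were compared between spleens treated with silica (SiO2), which the labels call remodelled, and control spleens treated with phosphate-buffered saline (PBS). Each group was 1 pool of RNA from 5 spleens of female mice, harvested on day 19 after the first injection and hybridised to 1 one-colour Agilent array. Both arrays lay on the same slide. Strain, age and dose are not stated in the sources, and the other cell and tissue groups that the series design names were not analysed here. Per the labels, a blood RNA kit with differential lysis of blood cells was used, and globin message was then depleted. A pool gives no spread between animals, so no test was made, and the values describe these pools. In whole tissue, a change in the number of dividing cells and a change in message per cell cannot be told apart.

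Most of these genes are silent in resting cells and are switched on late in the cell cycle. Cyclin A2 and the B cyclins activate the kinase Cdk1, which drives entry into mitosis. The kinetochore then ties each chromosome to spindle microtubules, and the spindle checkpoint holds the cell until every chromosome is attached. The anaphase-promoting complex ends the hold by marking securin and the B cyclins for destruction, after which the sisters part and the cell cleaves. In the mouse spleen, dividing cells are known to include erythroblasts and granulocyte precursors of the red pulp and B cells of germinal centres.

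Nearly all of these genes had a higher relative signal in the SiO2 pool. Of the 56 members, 42 lay at or above a 2-fold excess in SiO2, and 0 were at least 2-fold lower. Among all 16774 named genes above background on at least 1 array, 6.62% were at least 2-fold higher and 3.69% at least 2-fold lower. At least 3-fold higher were 12 members, against 2.09% of all genes, and 55 members lay above 0, against 52.3% of all genes. The members' median difference was 1.24 on the log2 scale, a fold of 2.36, and that of all genes was 0.03. Each difference is log2 of the processed intensity in SiO2 minus that in PBS, after the 75th percentile of its own array was subtracted. Apart from Pttg1 at -0.01, every member lay above 0.39, the upper quartile of all genes.

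The PBS array was the brighter of the pair, with a 75th percentile of 670 against 469. A gene at the same relative level in both pools therefore had a lower unscaled signal in SiO2. Before any scaling, 55 of the 56 members were nevertheless brighter on the SiO2 array, as were 19.3% of all genes. The signals quoted below are unscaled, and the folds are those after scaling. For 55 members the value comes from 1 spot on each array, and for Bub1 it is the mean of 10 spots. Among 300 probes that were spotted repeatedly, the difference between the arrays had a median SD of 0.061 over spots (log2) and a 95th percentile of 0.227. The 10 spots of Bub1 gave 0.98 ± 0.059 (SD over spots), from 0.87 to 1.07. This covers spots only, not animals, labelling or hybridisation. The threshold of 2-fold ran through a dense part of the list. Cdca8 lay just inside at 2.01-fold, and Ncapd2 at 1.99-fold, Kif22 at 1.99-fold and Bub1 at 1.98-fold lay just outside. Aurka at 1.03, Plk1 at 1.05 and Mad2l1 at 0.96 on the log2 scale were also near the threshold. All of these differed from it by less than the median SD over spots. Further members differed from it by less than the 95th percentile of that SD.

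**Figure D1:**
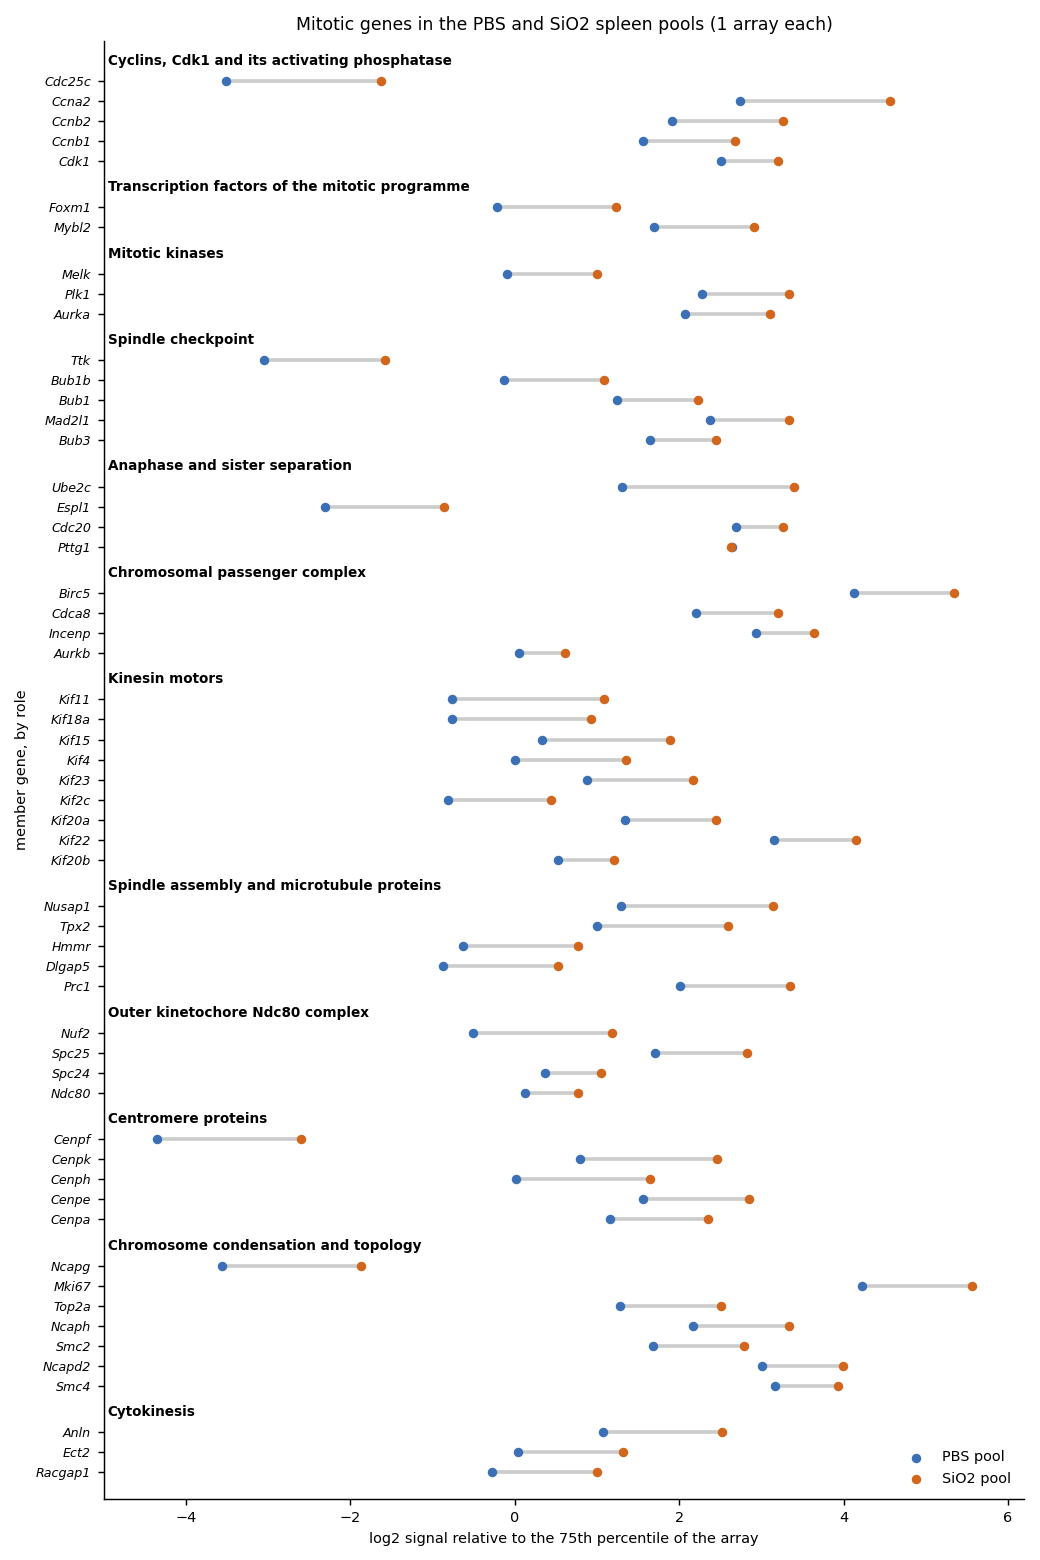
Signal of the 56 mitotic genes, as log2 of the processed intensity relative to the 75th percentile of the array, in the PBS pool (blue) and the SiO2 pool (orange), 1 array each, grouped by role. The SiO2 point lies to the right of the PBS point for every gene except Pttg1, whose points coincide; the position of different genes on the axis also depends on their probes.

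**Figure D2:**
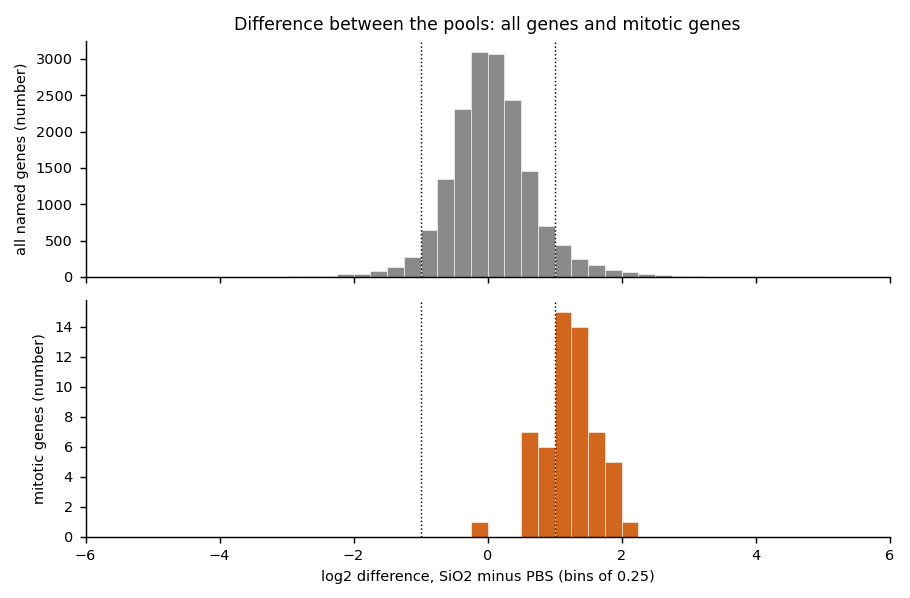
Number of genes by log2 difference, SiO2 minus PBS, in bins of 0.25, for all 16774 named genes (top) and the 56 mitotic genes (bottom); dotted lines mark a 2-fold difference. All genes centre near 0, whereas 42 of the mitotic genes lie at or beyond 2-fold on the higher side.

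The promoters are shown because the members differed together and many of them share letters that the choice of members did not use. Promoters of late cell cycle genes are known to carry a cell cycle genes homology region (CHR), commonly TTTGAA, through which the MuvB-based complexes hold the genes silent in resting cells and, with B-Myb and FoxM1, switch them on before mitosis. CCAAT boxes, which bind the factor NF-Y, often lie upstream. RefSeq windows (GRCm38.p6) of 300 bases, from 250 before to 50 after the annotated start, were given for 46 of the 56 members. In the stretches below, which run from 110 bases before the start to 40 after it, 5′ to 3′ on the strand of the gene, capitals mark TTTGAA and CCAAT on either strand (TTCAAA and ATTGG on the other strand). Ube2c and Kif11 had 2 of the 3 largest differences among the members with a window, Ccnb2 and Plk1 lay nearer the middle and the lower end of the called range, and Cdc20 had a match and a small difference. Nusap1, with a large difference, and Pttg1, with none, hold neither motif in this stretch.
Ube2c (chr2:164769819-164769968, plus strand): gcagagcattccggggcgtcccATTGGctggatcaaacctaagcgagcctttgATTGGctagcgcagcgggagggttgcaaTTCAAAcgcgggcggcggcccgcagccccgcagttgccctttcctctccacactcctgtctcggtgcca
Kif11 (chr19:37376272-37376421, plus strand): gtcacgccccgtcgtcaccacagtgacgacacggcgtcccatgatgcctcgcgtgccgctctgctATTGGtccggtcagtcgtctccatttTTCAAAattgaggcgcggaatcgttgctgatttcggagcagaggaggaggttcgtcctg
Ccnb2 (chr9:70421515-70421664, minus strand): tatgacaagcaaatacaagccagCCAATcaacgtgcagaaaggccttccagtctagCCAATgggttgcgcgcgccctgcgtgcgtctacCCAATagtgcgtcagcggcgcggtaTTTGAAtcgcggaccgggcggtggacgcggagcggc
Plk1 (chr7:122159325-122159474, plus strand): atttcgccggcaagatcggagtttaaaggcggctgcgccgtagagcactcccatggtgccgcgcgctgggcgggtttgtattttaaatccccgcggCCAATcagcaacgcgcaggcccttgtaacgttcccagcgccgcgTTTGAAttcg
Cdc20 (chr4:118437304-118437453, minus strand): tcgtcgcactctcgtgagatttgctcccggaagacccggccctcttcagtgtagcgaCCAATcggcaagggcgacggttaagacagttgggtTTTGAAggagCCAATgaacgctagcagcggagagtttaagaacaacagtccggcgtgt
Nusap1 (chr2:119618188-119618337, plus strand): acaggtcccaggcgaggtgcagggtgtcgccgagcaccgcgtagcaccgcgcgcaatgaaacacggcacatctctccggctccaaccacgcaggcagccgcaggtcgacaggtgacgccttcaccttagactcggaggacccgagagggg
Pttg1 (chr11:43425942-43426091, minus strand): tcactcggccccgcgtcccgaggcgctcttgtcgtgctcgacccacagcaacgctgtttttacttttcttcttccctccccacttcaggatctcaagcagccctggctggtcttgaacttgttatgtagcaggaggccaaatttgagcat

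TTTGAA was found in the windows of 32 of 46 members (69.6%), against 20.2% of the 27025 genes in the promoter table and 15.6% of those above background on these arrays. By window the shares were 68.6% of 51 for the members and 17.9% of 32851 for all. The matches lay close to the start. Between 60 bases before and 40 after it, 63.0% of members held TTTGAA, against 6.15% of all genes. CCAAT was found in 69.6% of members against 41.1% of all genes, and both motifs together in 58.7% against 7.97%. The narrower stretch around the start and the joint count were not listed with the design. In the printed stretch of Ccnb2, CCAAT lies at 87, 54 and 21 bases before the start and TTTGAA 4 bases after it. In that of Ube2c, CCAAT lies at 88 and 57 bases before the start and TTTGAA at 29 before it. The second form of the CHR, TTCGAA, was found in 3 members (6.52%, against 1.80% of all genes). The E2F motifs TTTGGCGC and TTTCCCGC were found in 3 and 1 members, which is 6.52% and 2.17%, against 0.585% and 1.24% of all genes. All motifs were searched on both strands and counted separately where they overlapped, and a match is a run of letters, not a measured binding site.

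Members with and without a match covered much the same range of differences. The 32 with TTTGAA had a median of 1.26, with 25 at least 2-fold higher, and the 14 without it a median of 1.21, with 11 at least 2-fold higher. The group with a match ran from 0.58 for Cdc20 to 2.09 for Ube2c, and the other from -0.01 for Pttg1 to 1.85 for Nusap1. Among 51 other mitotic genes with a window, from a list that shares no gene with the members, 56.9% held TTTGAA. In the narrower stretch around the start 43.1% of them held it, and 41.2% held both motifs in the window. Members with no window in the table were Ccna2, Cdc25c, Foxm1, Aurkb, Incenp, Kif20a, Tpx2, Dlgap5, Spc24 and Smc4.

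**Figure D3:**
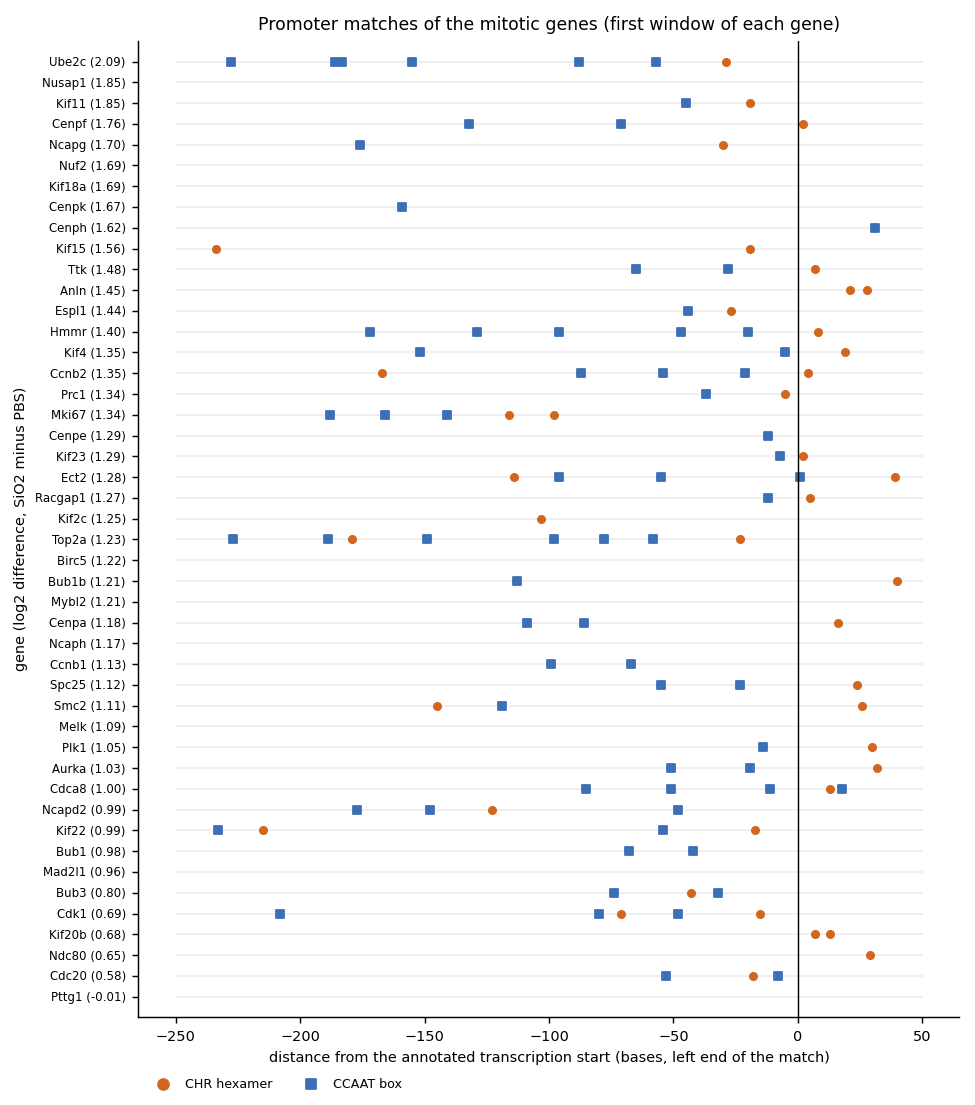
Position of matches to the CHR hexamer (orange circles) and the CCAAT box (blue squares) from 250 bases before to 50 after the annotated start, in the first promoter window of each of 46 mitotic genes, ordered by log2 difference, SiO2 minus PBS (in brackets). Circles gather around the start at 0 and squares upstream of them, in genes at the top and at the bottom of the order alike.

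Of the genes that set mitotic entry in motion, 4 of 5 were at least 2-fold higher. Ccna2, cyclin A2, gave a signal of 4471 in PBS and 11072 in SiO2, 3.53-fold higher after scaling. Ccnb1 and Ccnb2 encode the B cyclins. Ccnb2 gave 2523 in PBS and 4494 in SiO2, 2.54-fold higher. Ccnb1 gave 1966 in PBS and 3007 in SiO2 by its brightest probe, 2.18-fold higher, while its dimmer probes gave 1.68 and 1.63 on the log2 scale in place of 1.13. Cdc25c, a phosphatase that activates Cdk1, had the highest log2 difference of this group at 1.88, on dim signals of 58.8 in PBS and 152 in SiO2. With normexp background correction, an alternative described below, Cdc25c was at 1.29, under Ccna2 at 1.80. Cdk1 itself, the kinase partner of these cyclins, gave 3813 in PBS and 4308 in SiO2, a fold of 1.61-fold. Its 3 probes disagreed more than those of any other member, at 0.69, -0.07 and 0.24 on the log2 scale. The cyclins thus stood above their kinase by every Cdk1 probe.

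Both transcription factors of the mitotic programme were at least 2-fold higher. Foxm1, which encodes FoxM1, gave 577 in PBS and 1103 in SiO2, a fold of 2.73-fold, and its second probe, at signals of 13.9 and 23.7, gave 1.28 on the log2 scale. Mybl2, which encodes B-Myb, gave 2173 in PBS and 3519 in SiO2, a fold of 2.31-fold. The 3 genes grouped as mitotic kinases were higher by similar amounts. Plk1 gave 3256 in PBS and 4739 in SiO2 (2.08-fold). Aurka, the Aurora kinase of the spindle poles, gave 2826 in PBS and 4051 in SiO2 (2.05-fold). Melk, a kinase made by dividing cells, gave 628 in PBS and 938 in SiO2 (2.13-fold). These 3 kinases were all just past the threshold, and the count fell to 2 with normexp background correction and to 1, Melk, with quantile normalization. In the authors' deposited values, which held Plk1 and Aurka, they were at 0.99 and 0.98 on the log2 scale and the count was 0.

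The spindle checkpoint genes had a lower median than most groups, 0.98 on the log2 scale, with 2 of 5 at least 2-fold higher. Ttk, the kinase that starts the checkpoint signal at unattached kinetochores, was highest at 2.79-fold on signals of 80.5 in PBS and 157 in SiO2. Bub1b, which encodes the checkpoint protein BubR1, gave 612 in PBS and 994 in SiO2, a fold of 2.32-fold. The others were just within 2-fold. Bub1, a kinetochore kinase, gave 1581 in PBS and 2192 in SiO2 (1.98-fold). Mad2l1, the inhibitor of the Cdc20-bound complex, gave 3470.2 in PBS and 4745 in SiO2 (1.95-fold), and its other probes 1.20 and 1.08 on the log2 scale. Bub3, a partner of both Bub kinases, gave 2094 in PBS and 2564 in SiO2 (1.75-fold).

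Genes of anaphase held both extremes of the list. Ube2c encodes the ubiquitin-conjugating enzyme of the anaphase-promoting complex and had the largest difference of all 56. Its signal was 1649 in PBS and 4934 in SiO2, 4.27-fold higher, and its second probe gave 1.83 on the log2 scale in place of 2.09. Pttg1 encodes securin, which keeps the cohesin-cleaving protease separase inactive, and had the smallest. Its brightest probe gave 4173 in PBS and 2909 in SiO2, a log2 difference of -0.01, and its dim probe, at signals of 66.3 and 71.3, gave 0.62. Espl1, separase itself, gave 135 in PBS and 258 in SiO2, a fold of 2.72-fold. Cdc20, the activator of the complex, gave 4319 in PBS and 4515 in SiO2, a fold of 1.49-fold. Securin and Cdc20 were thus the members nearest to the centre of all genes, together with Aurkb.

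The chromosomal passenger complex corrects faulty attachments and later guides cleavage. Its survivin subunit, Birc5, gave 11661 in PBS and 18989 in SiO2, a fold of 2.32-fold, and its other probes gave 1.43 and 1.55 on the log2 scale. Cdca8, borealin, gave 3076 in PBS and 4326 in SiO2 (2.01-fold), with 1.51 by its second probe. The scaffold Incenp gave 5120.0 in PBS and 5861 in SiO2 (1.63-fold), with 0.49 by its second probe. Aurkb, the kinase of the complex, gave 693 in PBS and 716 in SiO2, a fold of 1.48-fold. The subunits of this 1 complex thus ran from 0.56 to 1.22 on the log2 scale, and with the array median as the scale only Birc5 was past 2-fold.

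Of 9 kinesins, 7 were at least 2-fold higher, with a median of 1.29 on the log2 scale. Kif11 (Eg5), which pushes the spindle poles apart, was highest, with a signal of 394 in PBS and 997 in SiO2 and a fold of 3.60-fold. Kif18a, which steadies chromosomes at the spindle equator, gave 395 in PBS and 890.3 in SiO2 (3.22-fold). Kif15, which shares the task of Kif11, gave 841 in PBS and 1737 in SiO2 (2.95-fold). Motors of the central spindle and the chromosome arms followed. The chromokinesin Kif4 gave 670.0 in PBS and 1200.4 in SiO2 (2.56-fold). Kif23, a subunit of centralspindlin, gave 1235 in PBS and 2114 in SiO2 (2.44-fold). Kif2c, which takes microtubules apart at centromeres, gave 382 in PBS and 635 in SiO2 (2.37-fold). Kif20a, which carries the passenger complex to the midzone, was just past the threshold with 1702 in PBS and 2564 in SiO2 (2.15-fold). The chromokinesin Kif22 gave 5964 in PBS and 8321 in SiO2 (1.99-fold), and Kif20b, a motor of late cytokinesis, was lowest with 967 in PBS and 1087 in SiO2 (1.60-fold).

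Spindle assembly and microtubule proteins were at least 2-fold higher in 5 of 5 cases, with a median of 1.40 on the log2 scale. Nusap1, which binds spindle microtubules around chromosomes, gave 1640.2 in PBS and 4153 in SiO2 (3.61-fold). Tpx2, the activator of Aurora A, gave 1334 in PBS and 2828 in SiO2 (3.02-fold), and its second probe 1.22 on the log2 scale. Hmmr, a microtubule-associated protein, gave 433 in PBS and 802 in SiO2 (2.65-fold). Dlgap5 (HURP), which stabilises the fibres that reach the kinetochores, gave 365 in PBS and 674 in SiO2 (2.64-fold), and Prc1, which bundles the central spindle, 2693 in PBS and 4781 in SiO2 (2.53-fold). Each of these 5 genes remained at least 2-fold higher under every setting with scaling and in the deposited values, wherever it was measured. In the unscaled signals Nusap1 and Tpx2 were still past 2-fold, at 1.34 and 1.08 on the log2 scale. There Hmmr, Dlgap5 and Prc1 were within it, at 0.89, 0.89 and 0.83.

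At the kinetochore, the microtubule-binding Ndc80 complex was uneven. Its subunit Nuf2 gave 469 in PBS and 1064 in SiO2 (3.23-fold) and Spc25 gave 2182 in PBS and 3329 in SiO2 (2.18-fold). Ndc80 gave 732 in PBS and 803 in SiO2 (1.57-fold) and Spc24 gave 865 in PBS and 968 in SiO2 (1.60-fold), both within 2-fold. Nuf2 and Ndc80, which pair at the microtubule-binding end, were at 1.69 and 0.65 on the log2 scale, and a second Nuf2 probe was not well above background. The centromere proteins, by contrast, were all at least 2-fold higher and had a median of 1.62, the highest of the 12 roles in the main setting. With normexp it was 1.24, below the spindle assembly proteins at 1.33 and the cyclin group at 1.26. Cenpa, the histone H3 variant that marks the centromere, gave 1499 in PBS and 2387 in SiO2 (2.27-fold). Cenph and Cenpk, of the inner kinetochore network that binds that chromatin, gave 678 in PBS and 1466 in SiO2 (3.08-fold) and 1156 in PBS and 2573 in SiO2 (3.18-fold). The kinetochore motor Cenpe gave 1978 in PBS and 3387 in SiO2 (2.44-fold). Cenpf, a large protein of the outer corona, had the dimmest signals of all members, 32.7 in PBS and 77.5 in SiO2, and a fold of 3.38-fold.

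Among genes that shape the chromosome, 5 of 7 were at least 2-fold higher. Mki67, the antigen Ki-67 that coats mitotic chromosomes and marks dividing cells, gave 12506 in PBS and 22179.6 in SiO2 (2.53-fold), and its second probe 1.13 on the log2 scale. Top2a, the topoisomerase that untangles sister chromatids, gave 1629 in PBS and 2678 in SiO2 (2.35-fold). Of the condensin core, Smc2 gave 2148 in PBS and 3249 in SiO2 (2.16-fold) and its partner Smc4 5991 in PBS and 7178 in SiO2 (1.71-fold). Of the other condensin I subunits, Ncapg gave dim signals of 56.7 in PBS and 129 in SiO2 (3.24-fold), Ncaph 3002 in PBS and 4723 in SiO2 (2.24-fold) and Ncapd2 5366 in PBS and 7492 in SiO2 (1.99-fold). Condensin genes thus ran from 1.71-fold for Smc4 to 3.24-fold for Ncapg. The upper end depended on the dim Ncapg signal. With normexp Smc4, Ncaph and Ncapg were at 0.63, 1.11 and 1.19 on the log2 scale. The 3 genes of cytokinesis were all past the threshold. Anln, the furrow scaffold anillin, gave 1407 in PBS and 2696 in SiO2 (2.73-fold). Ect2, which activates RhoA at the furrow, gave 687 in PBS and 1170.3 in SiO2 (2.43-fold). Racgap1, the partner of Kif23 in centralspindlin, gave 554 in PBS and 939 in SiO2 (2.42-fold), and its second probe 0.90 on the log2 scale.

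Several probes were available for 16 members. Of the 76 member probes above background on at least 1 array, 74 lay above 0 and 57 were at least 2-fold higher. In 11 of the 16 genes every probe was at least 2-fold higher, and no gene had probes more than 2-fold apart. The probes not above 0 were 1 each of Cdk1 and Pttg1. Across members, the difference went with a dimmer signal (Pearson r -0.37, Spearman rho -0.42, n = 56 genes on the same pair of arrays), against -0.06 and -0.10 across all 16774 genes. The 5 members with a PBS signal under 200, namely Cenpf, Ncapg, Cdc25c, Ttk and Espl1, had differences of 1.44 to 1.88. With normexp background correction, which raises dim signals by an offset, these 5 came to 1.01, 1.19, 1.29, 1.08 and 1.15, all still past 2-fold.

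Other genes of the mitotic apparatus, a list with none of the members, gave a similar picture. Among 60 above background, 59 lay above 0, 35 (58.3%) passed 2-fold in the same direction and 0 in the other. Their median was 1.15. Cdc25b, another phosphatase that activates Cdk1, was highest, with a signal of 847 in PBS and 2319 in SiO2 (3.90-fold). It was followed by Depdc1a at 3.85-fold and by the spindle protein Ckap2 at 3.32-fold. The exception was Pimreg, at -0.26 on the log2 scale, and Kif14 had no named probe. Pimreg was at 0.05 when B and T cell markers were set to 0.

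The lists of the anaphase-promoting complex, of cohesin and of the tubulins stood nearer to the centre of all genes. The list of the anaphase-promoting complex, which includes an activator, had a median of 0.19 on the log2 scale, and 2 of 14 passed 2-fold, both higher. The pair comprised Cdc27 (2.14-fold) and Fzr1 (3.06-fold). Fzr1 is not a core subunit but encodes the activator Cdh1, the counterpart of Cdc20. Cdc27 was at 0.87 on the log2 scale as the mean of its probes and at 0.60 in the authors' deposited values. Cohesin and its loaders had a median of 0.48 and 1 of 10 past the threshold, the cohesin release factor Wapl at 2.02-fold. Wapl was within 2-fold with normexp (0.88 on the log2 scale), median scaling (0.96), quantile normalization (0.94), cyclic loess (0.998) and in the authors' deposited values (0.96). Tubulins, the building blocks of the spindle and of all other microtubules, had a median of 0.18, or -0.10 in the authors' deposited values. None of the 12 tubulins was 2-fold higher, and Tubb3 and Tubb2b were 2.65-fold and 2.54-fold lower; tubulin genes are near-identical in parts, so probes may not separate them. Tubb3 was at -0.91 with normexp.

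Genes of G1 and entry into S phase had a median at the 2-fold line, and 9 of 18 were past it in the higher direction and 1 in the lower. The repressor E2f8 was 3.28-fold higher, the activator E2f2 2.94-fold and the kinase Cdk2 2.72-fold. The D cyclins, which link growth signals to the cycle, were uneven. Ccnd1 gave 1964 in PBS and 495 in SiO2, 2.78-fold lower. Ccnd2 and Ccnd3, named after their values were seen, were at -0.85 and 0.98 on the log2 scale. Genes that brake the cycle or hold cells at rest had a median of 0.55. Past 2-fold were 5 of 21, all in the higher direction. The Cdk inhibitor Cdkn1c (p57) was 3.80-fold higher, the retinoblastoma gene Rb1 2.73-fold and the Cdk4 and Cdk6 inhibitor Cdkn2c 2.63-fold. Other inhibitors were within 2-fold and went both ways. Cdkn2d and Cdkn1b were at 0.79 and 0.63 on the log2 scale, and Cdkn2a, Cdkn1a and Cdkn2b at -0.89, -0.31 and -0.10. With normexp, Cdkn1a and Cdkn2b were at 0.07 and 0.10, and Cdkn2a at -0.42. Btg2 (2.05-fold) and Rbl1 (2.04-fold) made up the count, and neither passed with normexp or the array median as the scale, where the count was 3. Btg2, Rbl1 and the inhibitors within 2-fold were named after their values were seen.

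Most markers of erythroid cells, granulocyte precursors and germinal centre B cells were higher in the same pool. Progenitor markers, given below, had a median of -0.43 on the log2 scale. Of 16 erythroid markers, 14 passed 2-fold in the higher direction. Their median was 1.63, and their summed signal relative to the array's 75th percentile was 149 in PBS and 319 in SiO2. Trim10 was 7.07-fold higher and the membrane protein Epb42 6.08-fold. Granulocyte precursor markers had 10 of 11 at least 2-fold higher, a median of 1.60 and summed signals of 25.8 and 108. The granule proteins Ngp, Ltf and Lcn2 were 8.77-fold, 7.80-fold and 5.46-fold higher. Elane, Mpo, Ctsg and Prtn3 were higher by less, at 3.03-fold, 2.99-fold, 2.13-fold and 2.01-fold, and Gfi1 was at 0.04 on the log2 scale. Germinal centre markers had 5 of 9 at least 2-fold higher, a median of 1.11 and summed signals of 5.93 and 6.76. Mybl1, the B-Myb relative A-Myb, gave 19.9 in PBS and 61.0 in SiO2, 4.37-fold or 2.13 on the log2 scale, against 1.07 with normexp, and Nuggc was 4.08-fold higher. The germinal centre factor Bcl6 was at -0.55 and Gcsam at -0.17 on the log2 scale. The part of each of these cell types in the mitotic signal was not tested.

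The remaining marker lists were mostly level or lower. B cell and T cell markers, which were above background in 20 of 20 cases on both arrays, had medians of -0.50 and -0.23, and 0 passed 2-fold in either direction; Cd79a and Cd5 lay at these medians. Plasma cell, megakaryocyte and progenitor markers had medians of -0.07, -0.18 and -0.43, with no member past 2-fold and Prdm1, Gp1bb, Flt3 and Cd34 at or nearest to them. With normexp the plasma cell and megakaryocyte medians were 0.05 and 0.07, and with B and T cell markers set to 0 these 2 and the T cell median also turned above 0. Macrophage markers had a median of -0.64 over 6 of 7 listed genes, with Spic 2.80-fold lower. Natural killer cell markers had 6 of 8 at least 2-fold lower, among them Gzma at 6.15-fold, Klre1 at 3.73-fold and Klrb1c at 3.69-fold. With normexp 2 of the 8, Gzma and Ncr1, were at least 2-fold lower. Of 8 fibroblast markers, 5 were at least 2-fold higher, led by Lum (6.96-fold, or 1.99 on the log2 scale with normexp in place of 2.80), Postn (4.02-fold) and Col3a1 (3.82-fold), and Dcn was at -0.86 on the log2 scale. Most erythroid, granulocyte precursor and fibroblast markers thus differed in the direction of the mitotic genes.

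**Figure D4:**
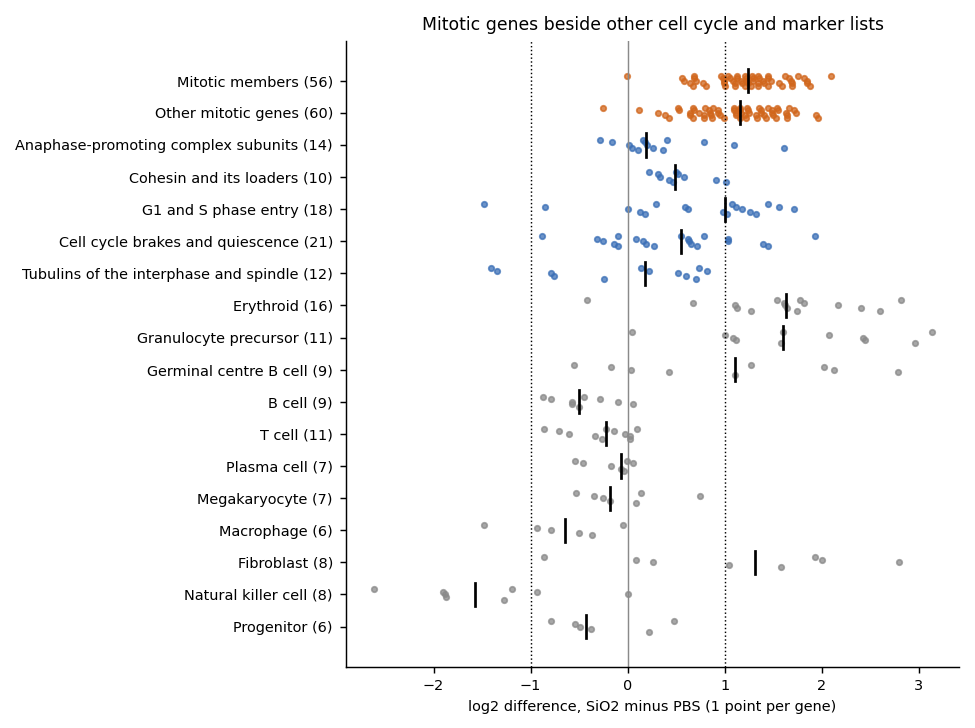
Log2 difference, SiO2 minus PBS, of each gene (1 point per gene) in the mitotic members and another list of mitotic genes (orange), other cell cycle lists (blue) and cell type markers (grey), with the number of genes in brackets; bars are medians and dotted lines mark 2-fold. Both mitotic lists have medians past 2-fold, at 1.24 and 1.15, as do the erythroid, granulocyte precursor, germinal centre and fibroblast lists, while the medians of B and T cell markers lie below 0.

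The height of the difference depended on how the arrays were brought to a common scale, and its direction did not for 55 members. With the median, quantile or cyclic loess scaling in place of the 75th percentile, 40, 39 and 41 of the 56 were at least 2-fold higher. Of all genes, 6.02%, 5.80% and 5.92% were then at least 2-fold higher, and 4.18%, 4.30% and 4.26% lower. When the lymphocyte markers of the B and T cell lists were centred on 0, 49 members were at least 2-fold higher. In that setting 2090 of all genes were higher and 301 lower, against 1110 and 619 in the main one. With no scaling at all, an alternative chosen after seeing the data, 13 members and 407 of all genes were at least 2-fold higher, and 2692 of all genes at least 2-fold lower. The gap between the median of the members and that of all genes was 1.21 without scaling as in the main setting, because a shift moves both alike, and 0.96 with normexp. Across the 9 alternatives listed with the design that gave differences, 38 members were at least 2-fold higher in every setting that measured them. Pttg1 was the 1 member not above 0 in all of them, ranging from -0.09 to 0.30.

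**Figure D5:**
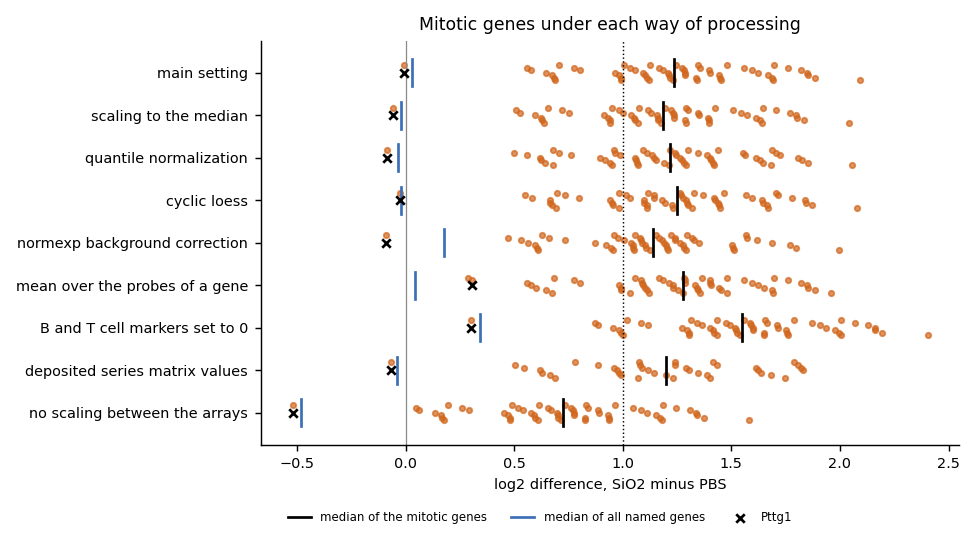
Log2 difference, SiO2 minus PBS, of the mitotic genes (orange points) under the main setting and 8 alternatives, with the median of the mitotic genes (black bar), the median of all named genes (blue bar) and Pttg1 (cross); the dotted line marks 2-fold higher. Apart from Pttg1, the orange points lie to the right of the blue bar in every setting shown.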

How the data were processed

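RNA from 1 pool of spleens per group was measured on 1 one-colour array per pool. Per the file headers, the authors deposited scanner output, with a processed intensity per spot, made with Agilent Feature Extraction 11.0.1.1 (the submitters' processing notes name 9.1). The value table the authors deposited is in log2 units, with its normalization unstated; against log2 scanner signal they had slopes of 0.995 and 1.01, medians of 5.68 in both columns and the sign of the signal. These were an alternative only.

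Control spots and outlier flags (145 and 148 of 43020 spots) were left out, and no spot was saturated. The main value was log2 of processed intensity minus the 75th percentile of the array, with repeated spots averaged. Probes were named by unversioned accession in RefSeq GRCm38.p6, where 27217 of 39398 (69.1%) matched 1 symbol. A gene was given by its brightest probe among those well above background in either pool; a dim value was raised to the lowest one above background. With 1 array per group, differences were described by 2-fold and 3-fold thresholds. Named were all members and, per list, up to 3 genes per direction past 2-fold, otherwise the gene nearest the median; 2 marker genes under this rule are not reported here, and Bcl6, Gcsam, Dcn and Ncr1 were added after their values were seen. The members and lists were chosen with earlier results of these data known. The gene summary was tested on simulated data. Alternatives were other scalings, other probe and filter rules, the deposited values and normexp (limma 3.58.1, R 4.3.3, offset 50), run on the median spot signal since no mean signal column was at hand.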

Additional observations from a re-analysis of the deposited data

How the results depend on the processing

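The count and the median of the mitotic members, and of the other mitotic genes, kept their direction under every alternative run, and 0 members were at least 2-fold lower in any. With normexp the medians were 1.14 and 1.05, while 655 of all genes were then at least 2-fold higher and 259 lower. With B and T cell markers set to 0 the medians were 1.55 and 1.46. In the authors' deposited values, which held 39 members and 38 other mitotic genes, 26 and 20 were at least 2-fold higher, the second median was 1.05, and 700 of all genes were higher and 572 lower. With no scaling between the arrays, 13 members and 11 other mitotic genes were at least 2-fold higher, with medians of 0.73 and 0.64. At 3-fold in place of 2-fold, 12 members were called. The median of all genes moved by 0.15 with normexp, 0.31 with the lymphocyte shift and -0.51 with no scaling. No paired analysis was possible because each group is 1 pool. The number of arrays limits the precision, and signals near background carry the most uncertain folds.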
